A study of Mus musculus with 9 samples.

Results

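The comparison was between mouse gut mesenchyme treated with Shh and the same mesenchyme treated with Vehicle. It was read on the 3 arrays titled as Shh treated and the 3 titled as Vehicle treated, 6 of the 9 arrays in the series, over all 18193 genes measured. Sonic hedgehog (Shh) and its close relative Indian hedgehog (Ihh), which 3 further arrays tested, are secreted proteins. The mesenchyme, which is the connective tissue, vessel and muscle layer under the gut lining, came from the small intestine of C57Bl/6J mouse embryos at E18.5, late in gestation. All groups shared this strain, with no allele or transgene named. The epithelium had been removed with Cell Recovery Solution, and the tissue was grown on a collagen matrix in serum-containing medium for 48 h and then treated for 24 h. For each treatment 6 wells had been pooled at random into 3 samples, and 6 ug of RNA was labelled per array. A replicate was therefore a pool of wells, and p-values measured the spread between such pools. No source used here gives the dose of Shh or what the vehicle contained. The question asked of the comparison was which genes of this tissue differ after 24 h with Shh, beyond the hedgehog, cytokine and smooth muscle genes usually followed.

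Hedgehog ligands of the gut are made by the epithelium and act on the cells beneath it, which carry the receptor Ptch1. Binding of the ligand to Ptch1 frees the membrane protein Smo, and transcription factors of the Gli family then switch on target genes, among them Ptch1 itself. The tissue beneath the epithelium also holds vessels, nerve cells and resident macrophages, the phagocytes that take up microbes and dead cells. Such phagocytes switch on receptors, secreted enzymes and metabolic enzymes when they meet microbial products.

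The log2 values were taken per gene from 1 probe set (a group of short probes for 1 transcript). Array medians lay between 5.87 and 5.92, and pairs of the 6 arrays correlated at Pearson's r of 0.9911 to 0.9966 across genes, which are not independent replicates. Values below the medians are compressed towards background, so differences of genes that reached there may be understated. The number of arrays limits the precision. As a check of the labels, Ptch1 stood at 10.41, 10.88 and 10.35 on Shh 1, 2 and 3 and at 9.25, 9.11 and 9.06 on Vehicle 1, 2 and 3, a rise of 1.41 ± 0.16 (SE, adjusted p = 0.00298). Hhip, which binds hedgehog ligands, rose by 0.58 (adjusted p = 0.0402, but up to 0.147 without any array but Vehicle 3), and Gli1 differed by 0.79 (adjusted p = 0.0871). Fibroblast markers such as Col3a1, Vim and Pdgfra were between 11.73 and 13.43, and all 11 fibroblast markers lay above the array medians on all 6 arrays. Markers of resident macrophages did so for 14 of 15 genes, and Csf1r, their growth factor receptor, reached 12.33. Endothelial markers did so for 14 of 14 genes. Pools differed in the sex of their embryos. Xist, which is transcribed in female cells, read 11.31, 11.24 and 6.43 on the Shh arrays and 10.83, 6.34 and 6.48 on the Vehicle arrays. RNA quality was read from Gapdh, as the signal at its 3' end minus that at its 5' end, which was -0.15, -0.16 and -0.18 with Shh and 0.03, -0.08 and -0.05 with Vehicle. For actin the same measure was 0.15, 0.17 and 0.14 with Shh and 0.28, 0.15 and 0.19 with Vehicle, so the treatments overlapped. The part of embryo sex in the results was not tested beyond the fits named below, and that of RNA quality was not tested.

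Shh was followed by more falls than rises. Of 18193 genes, 89 were higher with Shh, or 0.489%, and 225 were lower, or 1.24%, at an adjusted p under 0.05 by limma, a linear model fitted to all genes. The largest falls included receptors, enzymes and secreted proteins known from phagocytes, led by Fpr2 and Serpinb2, both 10.7-fold lower. Which cells of the tissue made these transcripts was not tested. Falls of at least 2-fold numbered 41 and rises of that size 5, and the median difference over all genes was 0.01 log2. The Shh and Vehicle arrays did not overlap for any of the 314 genes past the threshold, and without adjustment 1466 genes lay higher and 1954 lower at p under 0.05. When each array was left out in turn, 67 of the 314 genes passed every time, and 63 of these, 10 higher and 53 lower, also passed in every other fit per gene in which they were tested. These 63 genes are called stable below. With embryo sex as a covariate 111 of the 314 still passed. Of the genes named in these results as risen or fallen but not stable, Cd28, Hsd11b1, Igf1, Ccdc3, Pkib, Gas6, Angptl4, Pirb, Tfpi2, Pkm, Hp, Bcl3 and Clec4d were among these 111, and the others were not, at adjusted p of 0.0501 to 0.111. On the arrays with Xist under 7 log2, which were Shh 3 against Vehicle 2 and 3, Fpr2 differed by -3.54, Serpinb2 by -3.46 and Ltc4s by 1.27, and no test was run on them. Since the 6 arrays did not overlap for any called gene, the direction on these 3 was fixed beforehand.

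**Figure D1:**
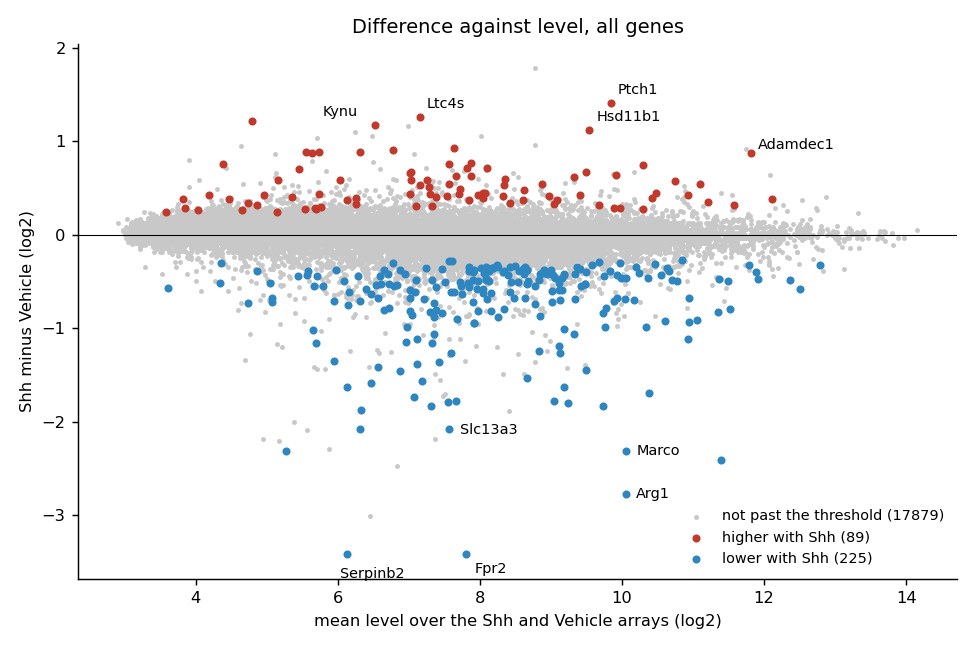
Difference between Shh and Vehicle (log2, y axis) against the mean level over the 6 arrays (log2, x axis) for each of 18193 genes. The 89 genes higher with Shh are red, the 225 lower are blue and the others are grey, and the falls reach -3.42 while Ptch1 at 1.41 is the highest red point.

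Among the gene lists, which were chosen with earlier results known, receptors by which phagocytes sense microbes and debris had the most falls. Of 33 measured genes of the list 8 fell and 1 rose, where 1.24% of all genes fell and 0.489% rose. The list's median difference was -0.24 against 0.01 over all genes. Its rank depended on the fit, since without Vehicle 3 it had 12 falls and the interferon-stimulated genes 21. Fpr2, a receptor for formylated bacterial peptides, read 6.02, 6.41 and 5.84 on the Shh arrays and 9.77, 9.65 and 9.10 on the Vehicle arrays. The difference of -3.42 ± 0.19 log2 (SE, adjusted p = 4.22e-05) left the Shh arrays close to the array medians. Marco, a scavenger receptor that binds bacteria, stood at 8.85, 8.99 and 8.88 with Shh and 11.15, 11.16 and 11.33 with Vehicle, 4.94-fold lower (adjusted p = 0.000267). Within each treatment its 3 arrays lay within a narrow range, far from the other treatment. Cd14, the co-receptor for bacterial lipopolysaccharide, was 8.56, 8.29 and 8.26 with Shh and 9.88, 9.87 and 10.24 with Vehicle, 3.09-fold lower (adjusted p = 0.000165). Clec4e, a lectin that binds mycobacterial glycolipid and a signal of dead cells, was 5.61, 5.68 and 4.90 with Shh and 7.34, 6.85 and 7.62 with Vehicle (adjusted p = 0.0044). Smaller falls were those of Clec4a2 (-1.38), Clec4d (-0.92), Tlr2 (-0.84), which senses bacterial lipoproteins, and the complement receptor C5ar1 (-0.82). Trem2, a receptor for lipids and cell debris, went the other way, at 8.29, 8.09 and 8.13 with Shh and 7.31, 7.39 and 7.70 with Vehicle (0.71 ± 0.15, adjusted p = 0.0464). All of these falls were stable except that of Clec4d, which was not past the threshold without Shh 2 (adjusted p = 0.052). The call of Trem2 ended without any array but Vehicle 3, at an adjusted p of up to 0.172, and without less specific probe sets (0.133).

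Other surface and signalling proteins known from phagocytes fell with them. Gpr84, a receptor for medium-chain fatty acids, read 5.72, 5.72 and 5.57 with Shh and 7.36, 7.01 and 7.40 with Vehicle (-1.59 ± 0.14, adjusted p = 0.00048). Irak3, which restrains signalling from Toll-like receptors, was 6.57, 6.55 and 6.10 with Shh and 8.09, 8.05 and 7.74 with Vehicle (-1.56 ± 0.15, adjusted p = 0.00133). No Shh array of either gene reached the lowest Vehicle array. Of 28 integrins and adhesion molecules 4 fell and 1 rose, with a median of -0.08. Itgal and Itgam, chains of the leukocyte integrins, fell by 1.06 and 0.83, and Itga5, a chain of the fibronectin receptor, by 0.68. Adgre1, the F4/80 antigen used to mark mouse macrophages, read 8.69, 8.83 and 8.86 with Shh and 9.88, 10.03 and 9.64 with Vehicle, 2.08-fold lower (adjusted p = 0.000885). Gpr84, Irak3, Itgal, Itgam and Adgre1 were stable. The call of Itga5 ended without Shh 2, Shh 3 or Vehicle 2, at an adjusted p of up to 0.0788, and without less specific probe sets (0.302), and Adgre4, an adhesion receptor related to Adgre1 that fell by 1.63, lost its call without Shh 1, Shh 3, Vehicle 1 or Vehicle 2 (up to 0.10).

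The macrophage markers as a whole did not follow Adgre1. Of 15 measured, 2 rose, 1 fell (4 without Vehicle 3) and the median was 0.05, and the mean level of the list was 8.39 to 8.49 on the Shh arrays and 8.26 to 8.49 on the Vehicle arrays. Timd4, a receptor for dying cells on resident macrophages, read 7.68, 8.10 and 8.06 with Shh and 7.23, 7.33 and 6.99 with Vehicle (0.76 ± 0.12, adjusted p = 0.0167). Gas6, a ligand that bridges dying cells to phagocytes, was 8.86, 8.59 and 8.55 with Shh and 8.19, 7.99 and 8.01 with Vehicle (0.60 ± 0.09, adjusted p = 0.014). Both genes were thus higher on all Shh arrays than on any Vehicle array. Among 13 markers of monocytes and neutrophils 2 fell, Mmp8 and Hp, and 7 lay above the array medians on all 6 arrays, with list means of 6.27 to 6.40 with Shh and 6.46 to 6.56 with Vehicle. Of these markers Elane, Mpo, Ltf and Ngp were between 4.27 and 5.15, while Camp was between 7.61 and 8.32 and S100a8 between 7.17 and 8.81. In such bulk samples fewer cells of a type and less RNA per cell cannot be told apart. The call of Timd4 ended without Shh 2, Shh 3 or Vehicle 1 (adjusted p up to 0.0644), that of Gas6 without Vehicle 2 (0.0689) and that of Hp without Shh 1, Vehicle 1 or Vehicle 2 (up to 0.0757).

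**Figure D2:**
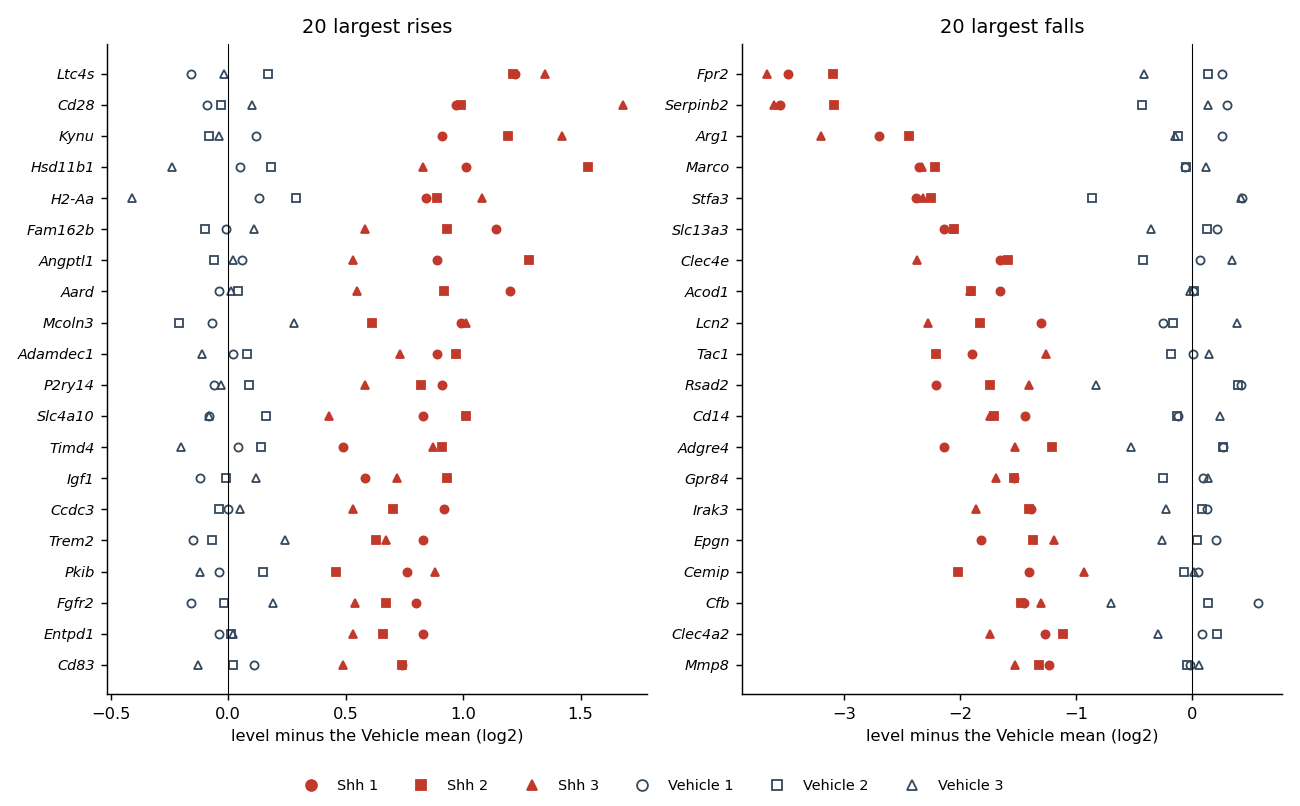
Level of each gene on each array minus its Vehicle mean (log2, x axis) for the 20 largest rises (left) and 20 largest falls (right). Genes of the hedgehog, cytokine and smooth muscle lists were left out. Shh arrays are filled red and Vehicle arrays open dark symbols, with the shape giving the replicate number. For all genes of both panels the Shh and Vehicle arrays stand apart, and Fpr2 and Serpinb2 lie furthest to the left.

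Arg1 and Acod1, metabolic enzymes known from activated macrophages, also had large falls. Among 19 measured genes of arginine, itaconate and tryptophan metabolism 3 fell and 1 rose, 9 lay above 0 and the median was -0.02. Arg1, which splits arginine to ornithine, read 8.74, 9.0 and 8.24 with Shh and 11.70, 11.32 and 11.29 with Vehicle, 6.84-fold lower (adjusted p = 7.81e-05). Acod1, which makes the antibacterial metabolite itaconate, was 6.56, 6.31 and 6.30 with Shh and 8.23, 8.24 and 8.20 with Vehicle, 3.57-fold lower (adjusted p = 4.22e-05). For both genes the gap between treatments was several times the spread within either. Odc1, which turns ornithine into putrescine, fell by 0.50 ± 0.09 (adjusted p = 0.0305). Kynu, an enzyme of tryptophan breakdown, rose, from 6.06, 5.86 and 5.90 with Vehicle to 6.85, 7.13 and 7.36 with Shh (1.17 ± 0.12, adjusted p = 0.0018). Slc13a3, a sodium-coupled carrier of dicarboxylates, read 6.47, 6.56 and 6.55 with Shh and 8.83, 8.74 and 8.26 with Vehicle (-2.08 ± 0.13, adjusted p = 5.52e-05), though only 1 of its 3 other probe sets lay on the same side. Arg1, Acod1, Kynu and Slc13a3 were stable, whereas the call of Odc1 ended without any array but Vehicle 3 (adjusted p up to 0.0929).

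Several secreted proteins and members of protease systems also fell. Serpinb2, an inhibitor of plasminogen activators, read 4.28, 4.75 and 4.23 with Shh and 8.14, 7.41 and 7.98 with Vehicle (-3.42 ± 0.19, adjusted p = 4.22e-05). Stfa3, a stefin that inhibits cathepsins and belongs to a family of near-identical genes whose signals the probes may share, was 4.05, 4.18 and 4.11 with Shh and 6.86, 5.57 and 6.85 with Vehicle (adjusted p = 0.00509). Vehicle 2 was the lowest Vehicle array for both genes and still far above the Shh arrays. Lcn2, which withholds iron carriers from bacteria, stood at 8.84, 8.31 and 7.86 with Shh and 9.89, 9.98 and 10.53 with Vehicle, 3.48-fold lower (adjusted p = 0.00743). Of 22 metalloproteases, ADAMTS enzymes and inhibitors 4 fell and 0 rose, with a median of -0.23. Mmp8, a neutrophil collagenase, read 6.87, 6.78 and 6.57 with Shh and 8.08, 8.06 and 8.16 with Vehicle (-1.36 ± 0.09, adjusted p = 7.26e-05). Mmp9, a gelatinase, fell by 0.93, Adamts4, which cuts aggrecan, by 0.53, and the metalloprotease inhibitor Timp1 by 0.43. Tfpi2, an inhibitor of serine proteases, fell by 0.71 and with Serpinb2 made up the 2 falls among 20 genes of coagulation and plasminogen activation. Of 14 complement genes 3 fell, which were Cfb (-1.41) and Cfp (-0.55) of the alternative pathway and the inhibitor Serping1 (-0.31). Calls ended without any array but Vehicle 3 for Cfb and Serping1, without Shh 1, Shh 2, Vehicle 1 or Vehicle 2 for Adamts4, without Shh 2, Shh 3, Vehicle 1 or Vehicle 2 for Timp1, and without any Shh array or Vehicle 1 for Tfpi2, at an adjusted p of up to 0.149, while the others named here were stable.

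Some genes of the oxidative burst fell. Of 22 measured genes for oxidant production and defence 4 fell and 0 rose, 8 lay above 0 and the median was -0.09. Cybb, the catalytic subunit of the phagocyte oxidase, read 9.31, 9.17 and 9.45 with Shh and 10.16, 10.12 and 10.19 with Vehicle (-0.84 ± 0.07, adjusted p = 0.00048). Ncf4, a cytosolic subunit of the same oxidase, was 7.57, 7.53 and 7.57 with Shh and 8.14, 8.12 and 8.09 with Vehicle (-0.56 ± 0.07, adjusted p = 0.00484). Sod2, the mitochondrial superoxide dismutase, was 10.75, 10.51 and 10.54 with Shh and 11.53, 11.44 and 11.55 with Vehicle (-0.91 ± 0.07, adjusted p = 0.000382). All 3 genes had Shh arrays well below every Vehicle array and were stable. Gsr, which regenerates glutathione, fell by 0.42 (adjusted p = 0.0313), and leaving out any array but Vehicle 3 took it past 0.05 (up to 0.131).

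Interferon-stimulated genes were low on all Shh arrays, but the Vehicle arrays did not agree among themselves. Of 23 measured genes 1 passed the threshold, 21 were lower at an unadjusted p under 0.05, none was above 0 and the median was -1.20. Without Vehicle 3, 21 of the 23 passed, and without any other array 0 did. The mean over the list, relative to the Vehicle mean, was -1.41, -1.20 and -1.03 on Shh 1, 2 and 3 and 0.43, 0.43 and -0.86 on Vehicle 1, 2 and 3. Vehicle 3 thus stood nearer to the Shh arrays than to the other Vehicle arrays. Rsad2 (viperin), an antiviral protein, read 7.73, 8.20 and 8.53 with Shh and 10.36, 10.34 and 9.11 with Vehicle (-1.78 ± 0.33, adjusted p = 0.033). Genes of MHC class I presentation, which interferon also raises, had the same shape, with list means of -0.33 to -0.30 on the Shh arrays and 0.16, 0.19 and -0.35 on the Vehicle arrays, and 0 of 15 genes past the threshold, but 10 without Vehicle 3. Nlrc5, the transcriptional activator of class I genes, read 4.94, 5.28 and 4.96 with Shh and 6.65, 6.15 and 5.15 with Vehicle (adjusted p = 0.147). The call of Rsad2 ended without any array but Vehicle 3, at an adjusted p of up to 0.132.

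**Figure D3:**
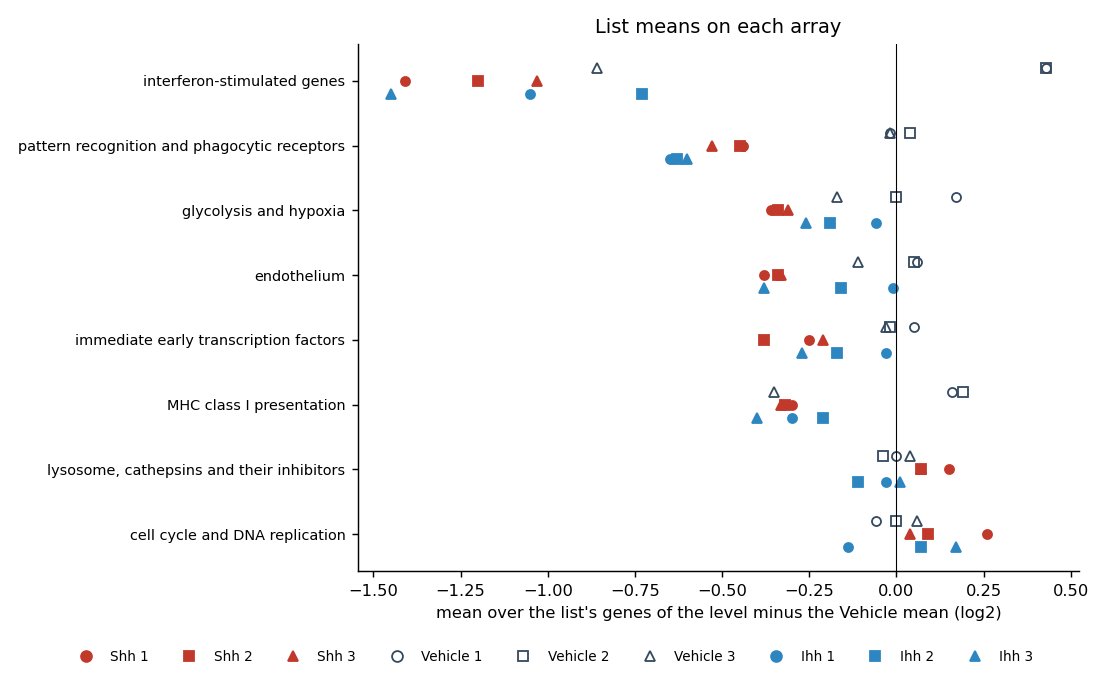
Mean over a list's genes of the level minus the Vehicle mean (log2, x axis) on each of the 9 arrays for 8 lists, with Shh in red, Vehicle as open dark and Ihh as blue symbols and the shape giving the replicate number. Vehicle 3 lies at -0.86 for interferon-stimulated genes, apart from Vehicle 1 and 2 at 0.43, whereas the Vehicle arrays lie close together for receptors of phagocytes.

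Some transcription factors of the immediate early kind, which rise within minutes of growth factor or stress signals, fell. Of 24 measured 5 fell and 0 rose, 14 were lower at an unadjusted p under 0.05 and the median was -0.25. The count was 2 without Vehicle 2, 1 without Shh 1, Shh 2 or Vehicle 1, and 1 with embryo sex as a covariate. Fos, a subunit of the AP-1 factor, read 9.71, 9.66 and 9.72 with Shh and 10.39, 10.45 and 10.33 with Vehicle (-0.69 ± 0.08, adjusted p = 0.00336), with little spread in either treatment. Egr1, a zinc finger factor, was 9.51, 9.56 and 9.69 with Shh and 10.42, 10.12 and 10.25 with Vehicle (-0.68 ± 0.11, adjusted p = 0.019). Fosl2, Junb and Ier2 fell by 0.43, 0.51 and 0.46. Nfil3, a repressor that is also part of the circadian clock list, read 7.92, 7.65 and 7.88 with Shh and 8.83, 8.74 and 8.51 with Vehicle (-0.88 ± 0.11, adjusted p = 0.0061). It and Per1, which fell by 0.42, were the 2 of 18 clock genes past the threshold. Of 18 genes of glucocorticoid metabolism and response 4 fell and 1 rose, the falls being Angptl4, Errfi1, Per1 and Cebpd, between -0.71 and -0.42, and the rise Hsd11b1. Fos and Nfil3 were stable. The other calls of this paragraph, that of Hsd11b1 aside, ended without at least Shh 2, at adjusted p of up to 0.151. Without less specific probe sets Angptl4 was read from another probe set and differed by 0.08 (adjusted p = 0.614).

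Growth factors and their receptors moved in both directions. Of 35 ligands and receptors of receptor tyrosine kinases 2 rose and 3 fell, with a median of -0.09. Igf1, the insulin-like growth factor, rose from 9.80, 9.91 and 10.04 with Vehicle to 10.50, 10.85 and 10.64 with Shh (0.75 ± 0.11, adjusted p = 0.0135), and all 3 of its other probe sets were also higher. Fgfr2, a fibroblast growth factor receptor, rose from 9.0, 9.14 and 9.35 to 9.96, 9.83 and 9.70 (0.67 ± 0.12, adjusted p = 0.0259). No Vehicle array of either gene reached the lowest Shh array. Igfbp4, which binds insulin-like growth factors, Fgfr1 and Ereg, an epidermal growth factor receptor ligand, fell. Epgn, another ligand of that receptor, read 5.79, 6.24 and 6.42 with Shh and 7.82, 7.65 and 7.35 with Vehicle (-1.46 ± 0.27, adjusted p = 0.033). Ereg was far brighter, at 12.15, 12.12 and 12.36 with Shh and 12.84, 12.81 and 12.71 with Vehicle (-0.58 ± 0.11, adjusted p = 0.0371), though levels of different genes cannot be set against each other here. The call of Igf1 ended without Vehicle 1 or Vehicle 2 (adjusted p up to 0.0693), that of Fgfr2 without Shh 1, Shh 2, Vehicle 1 or Vehicle 2 (up to 0.106) and those of Fgfr1, Ereg and Epgn without any array but Vehicle 3 (up to 0.139), and that of Igfbp4, which fell by 0.32, without any 1 array (up to 0.153). Without less specific probe sets Fgfr1 was read from another probe set and differed by 0.07 (adjusted p = 0.791), and Fgfr2 lost its call (0.258).

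Regulators of mesenchyme identity and of guidance included rises and falls. Of 34 transcription factors of gut mesenchyme and Hox genes 1 rose and 2 fell, and the median was -0.06. For the lists of this paragraph the comparison is with all genes, of which 0.489% rose and 1.24% fell. In the first list 9 genes were lower and 6 higher at an unadjusted p under 0.05. Among all 18193 genes 1954 were lower and 1466 higher at that p. Prrx1, a homeobox factor of embryonic mesenchyme, read 6.86, 6.87 and 7.14 with Shh and 8.36, 8.16 and 8.17 with Vehicle, 2.41-fold lower (adjusted p = 0.0141). Tcf21, a factor of fibroblast and muscle precursors, rose from 10.73, 10.94 and 10.82 with Vehicle to 11.44, 11.38 and 11.29 with Shh (0.54 ± 0.09, adjusted p = 0.0211). Tbx18, a T-box factor of mesenchyme, fell by 0.54. All 3 had Shh and Vehicle arrays apart. Among 33 WNT genes Dkk3, a member of the Dickkopf family, rose by 0.48 and Wnt5a, a ligand that guides gut elongation, fell by 0.48. Among 31 guidance and neurotrophic genes the ephrin receptor Epha3 rose by 0.40 and Artn, a ligand that draws sympathetic nerve fibres, fell by 0.55. Ryr3, a calcium release channel, rose by 0.40 and was the 1 of 22 channel genes past the threshold. None of these calls was stable. Each ended without Shh 1 and without Vehicle 1, at adjusted p of up to 0.142 over the arrays left out.

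In the matrix lists 2 genes passed the threshold, both lower. Of 34 glycoproteins and proteoglycans these were Fn1 (fibronectin, -0.32) and Has2, a hyaluronan synthase (-0.48), while 1.24% of all genes fell. Of 29 collagens and collagen-processing genes 0 passed, and the medians of the lists were -0.02 and -0.09. At an unadjusted p under 0.05, 9 genes of the first list were lower and 4 higher, and 8 of the second were lower and 3 higher. Among all 18193 genes 1954 were lower and 1466 higher at that p, so the share lower was above that of all genes in both lists. Cemip, which breaks hyaluronan down, read 8.82, 8.21 and 9.30 with Shh and 10.28, 10.16 and 10.25 with Vehicle (-1.45 ± 0.29, adjusted p = 0.039). Its Vehicle arrays were alike and its Shh arrays were spread over more than 1 log2 unit. Itga8, an integrin chain of mesenchyme that binds nephronectin, rose from 8.23, 7.93 and 8.07 to 8.78, 8.59 and 8.45 (0.53 ± 0.11, adjusted p = 0.0447). The calls of Fn1, Has2, Cemip and Itga8 ended without any of Shh 1, Shh 2, Vehicle 1 or Vehicle 2, at adjusted p of up to 0.169.

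Ltc4s had the largest rise outside the hedgehog genes, and other enzymes and secreted proteins rose as well. Ltc4s, which makes leukotriene C4, rose from 6.36, 6.69 and 6.50 with Vehicle to 7.74, 7.73 and 7.87 with Shh, 2.40-fold (adjusted p = 9.18e-05). It and Tbxas1, thromboxane synthase (0.41 ± 0.09, adjusted p = 0.0468), were the 2 of 25 eicosanoid genes past the threshold, and the list's median was -0.02. Hsd11b1, which regenerates active glucocorticoid from its inactive form, rose from 9.03, 9.16 and 8.74 to 9.99, 10.51 and 9.81, 2.18-fold (adjusted p = 0.0119). Every Shh array lay above every Vehicle array for both, though Hsd11b1 was spread more widely. Adamdec1, a secreted metalloprotease of the gut lamina propria, rose from 11.40, 11.46 and 11.27 to 12.27, 12.35 and 12.11 (0.87 ± 0.09, adjusted p = 0.00194). Entpd1 (CD39), which breaks down extracellular ATP, rose from 6.65, 6.70 and 6.71 to 7.52, 7.35 and 7.22 (0.67 ± 0.09, adjusted p = 0.00743). Ccdc3, a secreted protein, rose from 7.74, 7.70 and 7.79 to 8.66, 8.44 and 8.27 (0.71 ± 0.10, adjusted p = 0.0107), and P2ry14, a receptor for UDP-glucose, from 7.43, 7.58 and 7.46 to 8.40, 8.31 and 8.07 (adjusted p = 0.0463). Ltc4s, Adamdec1 and Entpd1 were stable. The call of Hsd11b1 ended without Vehicle 1 (adjusted p = 0.0514), that of Ccdc3 without Vehicle 1 or Vehicle 2 (up to 0.0553) and those of P2ry14 and Tbxas1 without any 1 array (up to 0.157).

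Some genes of MHC class II presentation, of immune receptors and of the lysosome also rose. Of 22 co-stimulatory and inhibitory receptors 3 rose and 2 fell, with a median of -0.03. Cd28, a co-stimulatory receptor best known on T cells, rose from 4.10, 4.16 and 4.29 to 5.16, 5.18 and 5.87 (1.22 ± 0.23, adjusted p = 0.0326), all below the array medians. Of 11 lymphocyte markers 0 passed and 3 lay above the array medians on all 6 arrays, Cd3e (6.11 to 6.48), Cd4 (7.21 to 7.68) and Il7r (7.87 to 9.34), while Cd3d and Cd3g were between 3.72 and 5.53. Cd300a, an inhibitory receptor, rose from 7.43, 7.60 and 7.64 to 8.28, 8.15 and 8.13 (0.63 ± 0.09, adjusted p = 0.00833), and Cd83, a marker of mature dendritic cells, by 0.66. Pilra and Pirb, paired inhibitory receptors of myeloid cells from families of similar genes, fell by 1.12 and 0.88. Of 11 MHC class II genes H2-Aa, from 7.29, 7.45 and 6.75 to 8.0, 8.05 and 8.24 (0.93 ± 0.18, adjusted p = 0.0387), and Ifi30 (0.27 ± 0.05) rose, and the median was 0.27. Among 28 lysosomal genes, cathepsins and inhibitors 3 rose (Ctsd, Hexa and Laptm5, between 0.35 and 0.39), 2 fell (Stfa3 and Ctsc), 12 were higher at an unadjusted p under 0.05 and the median was 0.14. Ctsd, the main aspartic protease of lysosomes, had a mean of 12.30 with Shh and 11.92 with Vehicle, with all Shh arrays above all Vehicle arrays. Mcoln3, a calcium channel of endosomes and lysosomes, rose from 5.13, 4.99 and 5.48 to 6.19, 5.81 and 6.21 (0.87 ± 0.18, adjusted p = 0.0442). Cd300a and Pilra were stable. The calls of Cd28, H2-Aa, Mcoln3, Ctsd and Ctsc ended without any array but Vehicle 3, those of Ifi30, Hexa and Laptm5 without any 1 array, and those of Cd83 and Pirb without at least Shh 2, Vehicle 1 or Vehicle 2, at adjusted p of up to 0.169. Laptm5 also lost its call without less specific probe sets (0.106).

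The remaining large rises were of genes less often studied in this tissue. Angptl1, an angiopoietin-like secreted protein, rose from 5.16, 5.04 and 5.12 to 5.99, 6.38 and 5.63 (0.89 ± 0.16, adjusted p = 0.0261). Slc4a10, a sodium bicarbonate transporter, rose from 3.93, 4.17 and 3.93 to 4.84, 5.02 and 4.44, values near the lower end of the arrays. Pkib, an inhibitor of protein kinase A, rose by 0.70, and Fam162b and Aard by 0.89 and 0.88. Among the falls Tac1, which encodes substance P, read 6.66, 6.35 and 7.30 with Shh and 8.57, 8.38 and 8.71 with Vehicle (-1.78 ± 0.35, adjusted p = 0.0386), and its other probe set did not move the same way. All 6 genes lost their call without Vehicle 1 or Vehicle 2, among others, at adjusted p of up to 0.137.

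**Figure D4:**
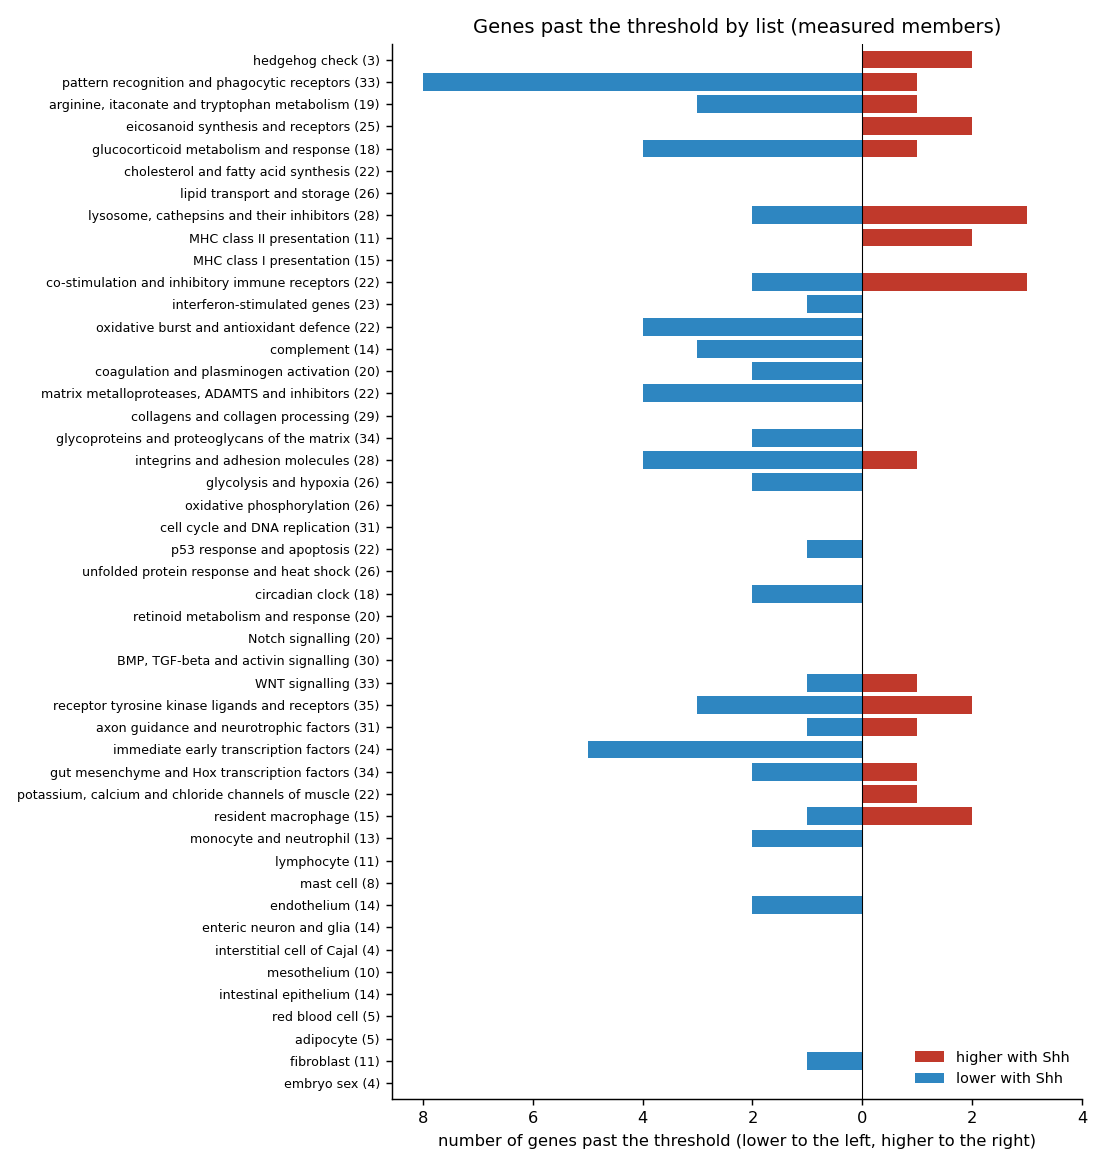
Number of genes past the threshold in each gene list and cell marker list (x axis, lower to the left in blue and higher to the right in red), with the measured members in brackets. Receptors of pattern recognition and phagocytosis hold the longest bar with 8 falls, with 0 genes past the threshold in lists such as oxidative phosphorylation and the cell cycle. The lists were chosen with earlier results of these data known.

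Several programmes showed small shifts with few or no single genes past the threshold. Of 26 genes of glycolysis and hypoxia Pkm and Hk1, both glycolytic enzymes, fell by 0.40 and 0.38, against 11 falls without Vehicle 3. In this list 19 were lower at an unadjusted p under 0.05, 1 was above 0 and the median was -0.34. The list means were -0.36, -0.34 and -0.31 on the Shh arrays and 0.17, 0.00 and -0.17 on the Vehicle arrays, so the treatments did not overlap. Of 31 cell cycle genes 0 passed and 28 lay above 0, with a median of 0.14, but the list means of 0.26, 0.09 and 0.04 with Shh and -0.06, 0.00 and 0.06 with Vehicle overlapped. The medians of oxidative phosphorylation (0.02), cholesterol synthesis (0.00), lipid transport (-0.01) and the unfolded protein response (-0.01) were at the level of all genes, with 0 genes past the threshold in each by limma. At an unadjusted p under 0.05 these 4 lists had 0 of 26, 2 of 22, 8 of 26 and 4 of 26 genes. Of BMP and TGF-beta genes 0 of 30 passed, of Notch genes 0 of 20 and of retinoid genes 0 of 20. At an unadjusted p under 0.05 they had 8, 9 and 8 genes, and 8 of the 9 Notch genes were lower. Over all 18193 genes 1466 were higher and 1954 lower at that p. The share was above that of all genes for lipid transport, BMP and TGF-beta, Notch and retinoid genes. It was below for oxidative phosphorylation, cholesterol synthesis and the unfolded protein response. In the retinoid list Aldh1a1, which makes retinoic acid, read 7.42, 7.80 and 7.53 with Shh and 7.09, 6.98 and 6.96 with Vehicle, and Cyp26b1, which breaks it down, 7.72, 7.65 and 7.67 with Shh and 8.83, 8.40 and 8.26 with Vehicle. Neither was past the threshold in the fit (adjusted p = 0.056 and 0.0577), although the arrays of both genes stood apart. The falls of Pkm and Hk1 ended without Shh 2, Shh 3, Vehicle 1 or Vehicle 2 (adjusted p up to 0.14). Of 22 genes of the p53 response and apoptosis 1 fell (3 without Vehicle 3), which was Casp4, an inflammatory caspase, by 0.69 (adjusted p = 0.0464), which leaving out any array but Vehicle 3 raised to as much as 0.173.

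Markers of other cells moved with some of these results. Of 14 endothelial markers 2 fell, Flt1 and Cdh5, against 4 without Vehicle 3. In this list 9 were lower at an unadjusted p under 0.05, 0 lay above 0 and the median was -0.30. Flt1, a receptor for vascular endothelial growth factor, read 7.80, 8.03 and 8.01 with Shh and 8.91, 8.73 and 8.56 with Vehicle (-0.79 ± 0.14, adjusted p = 0.0244). Cdh5, the cadherin of endothelial junctions, fell by 0.59. The mean level of the list was 8.64 to 8.68 on the Shh arrays and 8.90 to 9.08 on the Vehicle arrays. Markers of enteric neurons and glia had means of 7.78 to 8.05 with Shh and 8.04 to 8.35 with Vehicle, with 0 of 14 past the threshold and 7 at an unadjusted p under 0.05. Of 11 fibroblast markers 1 fell, Fn1, 5 were lower at an unadjusted p under 0.05, 2 lay above 0 and the median was -0.18. Of 4 markers of interstitial cells of Cajal 0 passed, 0 lay above 0 and the median was -0.26. Markers of epithelium, from 5.42 to 6.67 with Shh and 5.53 to 6.62 with Vehicle, and of mesothelium, from 5.39 to 6.44 and 5.37 to 6.54, varied widely within both treatments. The part of these cell types in the results was not tested. The calls of Flt1 and Cdh5 ended without any array but Vehicle 3 (adjusted p up to 0.161).

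The windows from 250 bases before to 50 after the gene start, taken from RefSeq (GRCm38.p6, the first window listed per gene), were searched on both strands for 4 short motifs, none of which contains another. A window was at hand for 68 of the 89 genes that rose and 181 of the 225 that fell. The motif TGANTCA, called the AP-1 motif here, allows any base in its middle, where the usual AP-1 site has C or G. This wider motif was in 23 of the windows of genes that fell (12.7%) and 6 of those that rose (8.82%). It was in 6.29% of the 14368 windows of all genes tested. The kappa B motif GGGANNTTCC was in 8 windows (4.42%), those of Il6, Cxcl1, Cxcl2 and Cxcl3 among them, in 0 windows and in 1.46%, and the interferon response core GAAANNGAAA in 14 windows (7.73%), 1 window (1.47%) and 3.03%. The GLI motif TGGGTGGTC was in 0 windows of either group and in 0.195% of all. The windows of Cybb and Rsad2 held both the AP-1 and the interferon motif. A match describes letters only and is not a bound site, and a window without one says nothing about a factor. The windows below are those of the 2 rises and 2 falls with the smallest p among the largest changes whose window held a motif. Serpinb2 and Stfa3 fell, and Igf1 and Slc4a10 rose. All 4 windows hold the AP-1 motif as written here, the most frequent of the 4 motifs over all genes. Its middle base is A in Serpinb2 and Igf1, T in Slc4a10 and G in Stfa3. Windows had to hold a motif to be shown, so this sharing was favoured by the choice and is not a result. The windows are printed on the gene's strand, 5' to 3', with the motif in capitals. They lie at chr1:107511173-107511472 (plus strand), chr16:36455343-36455642 (minus strand), chr10:87860861-87861160 (plus strand) and chr2:62046265-62046564 (plus strand).
Serpinb2: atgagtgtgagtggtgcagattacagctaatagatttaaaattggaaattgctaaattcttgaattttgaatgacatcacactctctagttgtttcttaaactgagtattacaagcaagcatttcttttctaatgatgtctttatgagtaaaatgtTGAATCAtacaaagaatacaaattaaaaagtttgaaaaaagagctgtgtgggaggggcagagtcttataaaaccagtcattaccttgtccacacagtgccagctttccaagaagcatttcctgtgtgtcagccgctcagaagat
Stfa3: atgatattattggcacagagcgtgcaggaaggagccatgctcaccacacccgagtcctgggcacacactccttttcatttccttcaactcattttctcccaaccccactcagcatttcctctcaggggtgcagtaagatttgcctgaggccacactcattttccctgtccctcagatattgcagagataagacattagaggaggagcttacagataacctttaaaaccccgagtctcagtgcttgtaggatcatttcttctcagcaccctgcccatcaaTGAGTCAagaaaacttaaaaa
Igf1: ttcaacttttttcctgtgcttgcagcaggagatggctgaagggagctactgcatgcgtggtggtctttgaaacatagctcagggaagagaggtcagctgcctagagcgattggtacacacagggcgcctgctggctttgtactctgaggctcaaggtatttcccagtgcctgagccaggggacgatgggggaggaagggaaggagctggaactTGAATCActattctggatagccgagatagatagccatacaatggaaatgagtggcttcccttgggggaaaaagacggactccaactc
Slc4a10: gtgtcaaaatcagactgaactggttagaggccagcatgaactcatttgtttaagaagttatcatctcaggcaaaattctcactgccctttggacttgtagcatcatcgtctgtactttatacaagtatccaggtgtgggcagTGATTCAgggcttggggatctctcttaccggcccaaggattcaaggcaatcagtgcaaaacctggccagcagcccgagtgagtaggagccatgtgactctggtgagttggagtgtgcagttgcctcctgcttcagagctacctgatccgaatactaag

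Shh and Ihh shared the Vehicle arrays, so their changes were set side by side and the difference between the ligands was tested directly. It passed for 2 of 18193 genes, or 0.011%, which were Marco and Acod1. Marco read 7.12, 6.68 and 7.57 on Ihh 1, 2 and 3, below its 8.85 to 8.99 on the Shh arrays, a difference of 1.78 ± 0.18 (Shh minus Ihh, adjusted p = 0.0142). Acod1 read 5.38, 5.11 and 5.35 with Ihh, below its 6.30 to 6.56 with Shh, a difference of 1.11 ± 0.09 (adjusted p = 0.00519). Both genes thus fell with either ligand and lay lower with Ihh than with Shh on every array. Fpr2 read 5.81, 5.73 and 5.40 with Ihh and Ltc4s 7.79, 7.82 and 7.89, and their differences between the ligands were 0.44 ± 0.19 (adjusted p = 0.377) and -0.06 ± 0.08 (adjusted p = 0.775). Mcoln3 read 5.42, 5.01 and 5.65 with Ihh, a difference of 0.71 ± 0.18 from Shh that was not past the threshold (adjusted p = 0.285). No source used here gives the doses of the 2 ligands, so the values compare these treatments and not equal amounts of ligand.

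**Figure D5:**
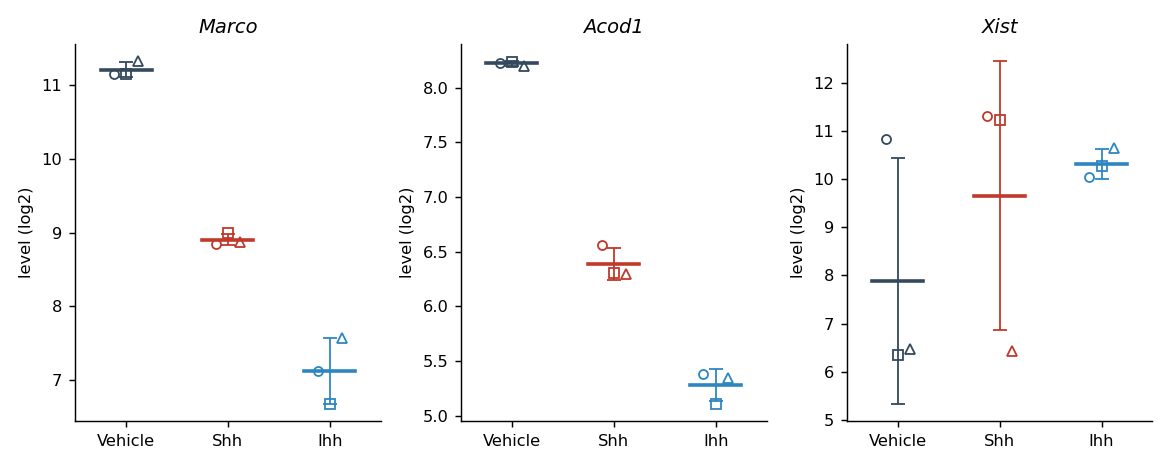
Level of Marco, Acod1 and Xist (log2, y axis) on the 3 Vehicle, 3 Shh and 3 Ihh arrays, with circles, squares and triangles for replicates 1, 2 and 3, a thick line at the mean and bars of 1 SD. Marco and Acod1 are highest with Vehicle, lower with Shh and lowest with Ihh, while Xist splits the Vehicle and Shh arrays into high and low.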

How the data were processed

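Expression was measured on 9 Affymetrix arrays, 3 per treatment. Each array came as deposited log2 values, 1 per probe set, which the authors made with GCOS and RMA per the submitters' processing notes. Their versions were not stated. RMA corrects background and sets all arrays to 1 distribution, so a shift common to all genes would not be seen. Of 45101 probe sets 34945 had exactly 1 gene symbol in the platform annotation, 932 had several, 9160 had none and 64 were controls. For each gene the probe set of highest mean among those with 1 symbol was used, which gave 18193 genes, 9010 of them with several probe sets. Entrez identifiers of 34741 probe sets were in the RefSeq table of GRCm38.p6, used for names.

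A model of 3 group means over the 9 arrays was fitted with limma 3.58.1 in R 4.3.3 (lmFit, eBayes; 6 residual and 3.88 prior degrees of freedom). P-values were two-sided, adjusted by Benjamini-Hochberg over all genes, with a threshold of 0.05. Differences are Shh minus Vehicle in log2, errors are SE, and all adjusted p are from limma. The fit was also run on simulated data with independent noise per gene and array. Those data held no differences shared by the genes of an array, so the run says nothing about such differences. Python 3.11.15 counted lists and motifs.

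By rule the text names the 20 largest rises and the 20 largest falls with adjusted p under 0.05 outside the hedgehog, cytokine and smooth muscle lists, whose arrays did not overlap, up to 4 members past the threshold with the smallest p of each of 34 gene lists and 13 cell marker lists (or the 2 of smallest p where none passed), Ptch1, Gli1, Hhip and the embryo sex genes. Only some of these are given with values. Tlr2, Clec4d, Laptm5, Ier2, Cebpd, Igfbp4, the marker genes given by level, and the genes under other observations were named after their values were seen. Members and lists were chosen with earlier results of these data known, and lists are described by counts and medians, with no test. Alternatives were a replicate block, other scalings, probe set choices, variance models, array weights, embryo sex (Xist minus the mean of 3 Y-linked genes) as a covariate and each array left out. The comparison on arrays with low Xist was added after seeing the data.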

Additional observations from a re-analysis of the deposited data

Results flagged for a closer look

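Marco and Acod1 drew attention because a test of the difference between the ligands itself passed the threshold (limma, adjusted p = 0.0142 and 0.00519). The difference, Shh minus Ihh, was 1.784 log2 for Marco and 1.107 log2 for Acod1, with every Shh array above every Ihh array. Both ligands lowered both genes, and the difference from Vehicle was -2.31 with Shh and -4.09 with Ihh for Marco and -1.83 and -2.94 for Acod1. No source used here gives the doses, and their part in the difference was not tested.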

How the results depend on the processing

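As reported, 89 genes were higher and 225 lower. Leaving out 1 array gave 18 to 146 higher and 62 to 529 lower, lowest without Vehicle 1 and highest without Vehicle 3. With the 6 Shh and Vehicle arrays alone 55 genes were higher. The embryo sex covariate gave 26 higher and 106 lower, array weights 300 and 717, and a threshold of 0.1 gave 242 and 586. The replicate block gave 115 higher and 407 lower. Deviations of same-numbered arrays correlated at -0.108, 0.141 and -0.158 for Shh with Vehicle and at 0.353, 0.226 and 0.543 for Ihh with Vehicle. The labels tie nothing to the number, so Shh and Vehicle arrays were not taken as paired, although each Vehicle array correlated best with the Ihh array of its own number. Other scalings gave 72 to 95 higher and 175 to 308 lower. Of 94 named genes past the threshold 32 passed in every fit and 43 with the embryo sex covariate, and since their Shh and Vehicle arrays did not overlap, leaving out an array could not turn their direction. Without less specific probe sets Angptl4 (0.08) and Fgfr1 (0.07) lay above 0, being read from other probe sets. Of the named calls, 25 ended with the 6 arrays alone (adjusted p 0.0503 to 0.0948), which were H2-Aa, Angptl1, Slc4a10, Rsad2, Cfb, Hhip, Tbxas1, Ctsc, Ifi30, Gsr, Serping1, Timp1, Has2, Fn1, Itga5, Itga8, Pkm, Hk1, Casp4, Wnt5a, Epha3, Junb, Tbx18, Ryr3 and Cdh5. With the mean of probe sets 13 ended (0.0513 to 0.173), which were H2-Aa, Angptl1, Mcoln3, Pkib, Tac1, Angptl4, Ctsc, Itga5, Fgfr1, Fosl2, Tcf21, Ryr3 and Cdh5. Quantile normalization ended 9 (0.0514 to 0.0628), a trended variance 6 (0.0508 to 0.0888), the block 5 (0.052 to 0.0556) and median centring 5 (0.0504 to 0.0613), all with their direction unchanged. Low levels limit what genes under the array medians can show.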

Other observations

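Outside all lists, regulators of the NF-kB family were among the genes past the threshold. Nfkbiz, a nuclear regulator of NF-kB targets, read 9.79, 10.00 and 9.74 with Shh and 10.92, 10.79 and 10.78 with Vehicle (-0.99 ± 0.09, limma adjusted p = 0.00108). Cebpb, a factor of myeloid gene activation, was 10.74, 10.43 and 10.63 with Shh and 11.24, 11.37 and 11.22 with Vehicle (-0.68 ± 0.09, adjusted p = 0.00768). No Shh array of either gene reached the lowest Vehicle array, and both calls held without any 1 array. The subunits Rela and Nfkb2 and the co-regulator Bcl3 fell by 0.35, 0.28 and 0.62. None of the 3 passed when Shh 2, Shh 3, Vehicle 1 or Vehicle 2 was left out, at adjusted p of up to 0.14. Glrx, a thiol reductase, was 8.59, 8.52 and 8.37 with Shh and 9.68, 9.85 and 9.75 with Vehicle, 2.41-fold lower (adjusted p = 4.22e-05). Ch25h, which makes 25-hydroxycholesterol, fell by 0.55 (adjusted p = 0.00517). Both genes passed without any 1 array.

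Some rises outside the lists were those of an enzyme of sialic acid breakdown, an iron exporter and lysosomal enzymes. Npl, which breaks down sialic acid, rose from 9.64, 9.68 and 9.49 to 10.11, 10.30 and 10.31 (0.64 ± 0.07, adjusted p = 0.00395). Slc40a1, the iron exporter ferroportin, rose from 10.23, 10.28 and 10.26 to 10.65, 10.69 and 10.78 (0.45 ± 0.06, adjusted p = 0.00646). The Shh arrays of both lay above every Vehicle array, and both passed without any 1 array. The lysosomal enzymes Man2b1, Tpp1 and Fuca2 rose by 0.29, 0.32 and 0.49. Their calls ended without Shh 1, Shh 3 or Vehicle 2 (adjusted p up to 0.178), and those of Man2b1 and Fuca2 without less specific probe sets (0.603 and 0.338).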
